A study of Mus musculus with 2 samples.

Results

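Late proximal tubule cells of the S3 type were studied in 2 single-cell RNA libraries of mouse kidney after ischemia-reperfusion injury. They were chosen as barcodes with at least 1000 unique molecular identifiers (UMIs, each counting 1 captured transcript), at most 50% of UMIs from genes of the mitochondrial genome, at least 5 UMIs of Slc7a13, Cyp2e1 and Inmt together, at least 5 UMIs of Kap and at most 1 UMI of Slc5a2. Of the 7077 barcodes that met the limits on UMIs and mitochondrial share, 218 met the whole rule, namely 55 of 3093 in the control and 163 of 3984 in the JPI-289 library. These are 1.78% (exact binomial 95% interval 1.34 to 2.31) and 4.09% (3.50 to 4.75). These intervals and those of ratios cover counting error only. Both kidneys came from male C57BL/6 mice aged 9 weeks and were taken 24 h after bilateral renal ischemia and reperfusion. The control mouse received saline and the other mouse the poly (ADP-ribose) polymerase (PARP) inhibitor JPI-289 at 100 mg/kg, each into the peritoneal cavity just before blood flow was restored. With 1 mouse per group no test between the groups was possible, so every difference is one between 2 libraries. No uninjured kidney was analysed here, and the control library is itself a kidney after ischemia.

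The proximal tubule has 3 consecutive segments, of which the last, S3, runs straight through the outer stripe of the outer medulla. This part of the nephron works with little oxygen to spare and is a main site of tubular damage after ischemia. Its cells reabsorb what the earlier segments leave behind, secrete organic ions and drugs and, in male mice, carry many genes that respond to androgen. PARP enzymes consume NAD as they mark damaged DNA for repair, and PARP inhibitors block them.

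The genes of the rule are given first, as a description, since they chose the cells. Slc7a13 (ENSMUSG00000041052, chr4:19818725-19842218 of GRCm38 in GENCODE vM21) encodes an apical cystine and acidic amino acid transporter of S3. There were 20 UMIs of it in control and 130 in JPI-289 cells, found in 11 and 62 of the cells. Cyp2e1 (ENSMUSG00000025479, chr7:140763739-140774987), a cytochrome P450 of small-molecule oxidation, was detected in all 218 cells and supplied 91.2% of the UMIs of the 3 genes in control and 75.6% in JPI-289 cells. Inmt (ENSMUSG00000003477, chr6:55170626-55175043), an indolethylamine methyltransferase, had 31 and 528 UMIs and was detected in 29.1% and 75.5% of the cells. The control members thus rested mostly on Cyp2e1, and the JPI-289 members on Cyp2e1 with Inmt. Kap (ENSMUSG00000032758, chr6:133849851-133853762), the kidney androgen-regulated protein, had a median of 199 UMIs per control cell and 148 per JPI-289 cell, or 19.0 and 14.5 per 1000 UMIs of the cell. The lowest cell had 1.07 per 1000 for the control and 0.386 for JPI-289, and 2 and 18 cells were under 5 per 1000. Slc5a2, the glucose transporter of the early proximal tubule, had 1 UMI in 6 control and 22 JPI-289 cells and none in the others.

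**Figure D1:**
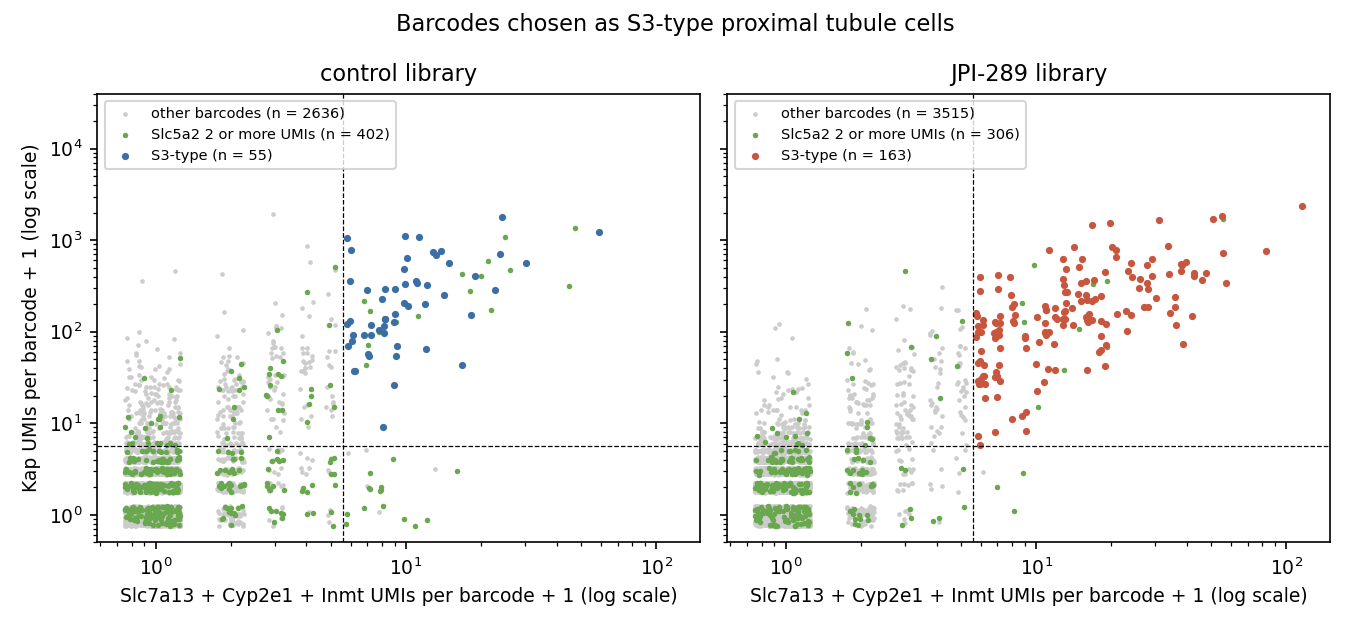
Each point is 1 barcode that met the limits on UMIs and mitochondrial share, with the summed UMIs of Slc7a13, Cyp2e1 and Inmt on the x axis and the UMIs of Kap on the y axis (both plus 1, log scale, with small random shifts so that equal counts do not overlap), in the control library (left) and the JPI-289 library (right). The dashed lines mark 5 UMIs. Coloured large points are the 55 and 163 S3-type cells and green points are barcodes with 2 or more UMIs of Slc5a2.

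Values near the limits of the rule were as follows. Among barcodes that met every other condition, 10 control and 24 JPI-289 members had exactly 5 UMIs of the 3 genes, and 16 and 29 barcodes with 4 UMIs were left out. Members with 5 UMIs had a median of 9073.5 and 5815 UMIs in all, and barcodes with 4 had 5365.5 and 3795, so the rule favoured deep barcodes. The members had a median of 11497 UMIs for the control and 12070 for JPI-289, against 2886 and 2495.5 over all barcodes that met the first limits. Kap was between 5 and 9 UMIs in 1 and 4 members, and 5 and 1 barcodes with 0 to 4 were left out. Another 6 and 6 barcodes were left out with 2 UMIs of Slc5a2. In neutrophil-type barcodes (20 or more UMIs of S100a8 and S100a9), which should lack Kap, 5.08% of 177 control and 5.50% of 564 JPI-289 barcodes reached 5 Kap UMIs at median depths of 2358 and 2341 UMIs, while 1 in each library reached 5 UMIs of the other 3 genes. No barcode sequence was shared between the S3-type cells of the libraries, and 14 were shared among all barcodes that met the first limits.

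The label was checked with genes outside the rule. Acsm3 (ENSMUSG00000030935, chr7:119760923-119787513), a medium-chain acyl-CoA synthetase of late proximal tubule, had 142 UMIs in control and 390 in JPI-289 cells (171 and 176 CPM, counts per 1000000 UMIs of the same cells). In early proximal tubule cells, defined here by 2 or more UMIs of Slc5a2 and at most 4 of the 3 S3 genes (370 control and 291 JPI-289 barcodes), it had 14 and 4 UMIs (4.56 and 1.66 CPM). After each cell was thinned to 1000 UMIs, Acsm3 was found in 25.5% of control cells and 11.7% of JPI-289 S3-type cells, in 1.08% and 0% of early cells and in 0% and 0.532% of neutrophil-type barcodes, and without thinning in 69.1% and 61.3% of S3-type cells. Without thinning it was in 2.97% and 1.37% of early cells, so the 0% in thinned early cells does not limit how many express it. The S3-type cells of both libraries thus carried a late-segment gene at a level that early cells did not.

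Other genes stood well above early cells in both libraries, and those named here were chosen for that difference. Cyp2a4, a steroid hydroxylase, had 59 and 174 UMIs in S3-type cells and 1 and 4 in early cells. Of its S3-type UMIs, 20.3% in the control and 31.6% with JPI-289 lay in 1 cell. The related gene Cyp2a5 had 525 and 744 UMIs in S3-type and 205 and 539 in early cells. Whether reads are shared between these genes was not tested. Slco1a1, an organic anion transporter of male kidney, had 26 and 115 against 1 and 3. Hsd11b1 and Hsd17b2, both steroid dehydrogenases, had 38 and 90, and 18 and 95, UMIs in S3-type cells. For Hsd17b2, 27.8% and 22.1% of these lay in 1 cell. Ace, angiotensin-converting enzyme of the late brush border, had 52 and 66 UMIs against 8 and 2. Irx3, a homeodomain factor, had 43 and 131 against 7 and 8. Napsa, an aspartic protease, had 529 and 1134 against 203 and 71. The opposite side held genes nearly absent from S3-type cells. Ptgds, a prostaglandin D synthase, had no UMI in S3-type cells of either library and 152 and 48 in early cells, and Trf, which encodes transferrin, had 1 and 2 UMIs against 243 and 212. Of the 12 genes listed as typical of S3 beside the rule, 9 were detected and measured. Summed over the list, the level was 1367 CPM in control and 859 in JPI-289 S3-type cells, against 469 and 155 in early cells. Slc7a12 was among those with 0 UMIs in both libraries. Slc22a7, also on the list, was at 0 in 53 of 55 control and 149 of 163 JPI-289 S3-type cells.

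Markers of other tubule states were present. All 7 early proximal tubule markers were detected. Their sum was 1626 CPM in control and 1334 in JPI-289 cells, against 6101 and 1900 in early cells. Slc5a2 is among them and both cell groups were chosen by it, so part of that contrast follows from the choice. Slc34a1, the phosphate transporter, was the most abundant (629 and 2436 UMIs). In the JPI-289 library Slc34a1 stood at 1100 CPM in S3-type and 691 CPM in early cells, and in the control at 757 and 2317, so the rule's limit on Slc5a2 did not leave out all early-segment expression. The 5 markers of injured proximal tubule had 2682 and 3833 CPM in S3-type cells, led by Spp1, and Vcam1 was at 0 in the JPI-289 cells. Markers of other cell types had few UMIs. Of 6 neutrophil markers, 4 and 5 were detected with 59 and 100 UMIs in all, mostly S100a9 and S100a8, and Cxcr2 was at 0 in both libraries. In each library 1 S3-type cell also met the neutrophil-type limit. Of 6 macrophage markers, Csf1r alone was detected in the control (4 UMIs) and 2 in the JPI-289 cells, led by Cd74 (15 UMIs), while C1qa, C1qb, C1qc and Adgre1 were at 0. Of 5 thick ascending limb markers, 3 were detected in the control with 116 UMIs, of which 109 were Cldn10, which proximal tubule also expresses, and Slc12a1 and Cldn16 were at 0; all 5 were detected in the JPI-289 cells, with 47 UMIs. The 6 endothelial markers were all detected in both libraries with 69 and 35 UMIs, led by Flt1. Collecting duct markers had 25 and 11 UMIs, podocyte markers 6 and 11, distal convoluted tubule markers 4 and 10, stromal markers 1 and 2 and lymphocyte markers 0 and 0. Of 5 red blood cell markers, 3 were detected in the control with 19 UMIs and 4 in the JPI-289 cells with 386, of which 320 were Hbb-bs, and 85.6% of those 320 lay in 1 cell. The share of free RNA among the UMIs of S3-type cells was estimated at 2.49% for the control and 3.35% for JPI-289.

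**Figure D2:**
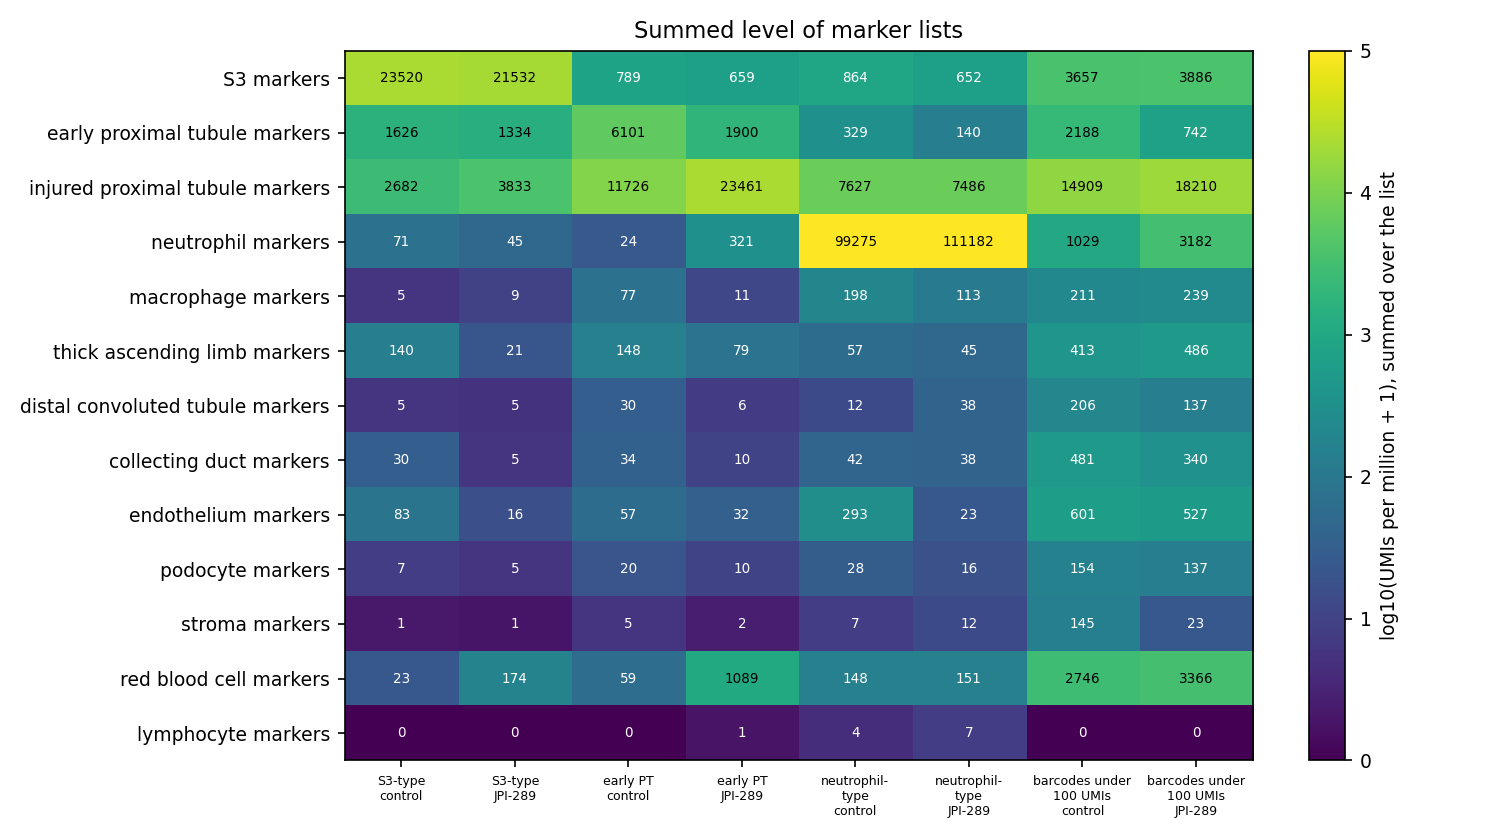
Each row is a marker list and each column a set of barcodes of 1 library. Numbers are the summed level of the list in CPM, and colours the log10 of that level plus 1. S3 markers stood at 23520 and 21532 CPM in S3-type cells, mostly Kap, but 4 of these 5 genes are genes of the rule, so that row is a description of the choice of cells, and lymphocyte markers at 0 in S3-type cells. The early proximal tubule list holds Slc5a2, by which S3-type and early cells were both chosen. Barcodes under 100 UMIs stand for free RNA.

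The main comparison asked how S3-type cells of the JPI-289 kidney differed from those of the control kidney. UMIs were summed per library, over 831250 UMIs of control and 2215020 of JPI-289 cells, and each gene's share in JPI-289 cells was divided by its share in control cells and put on the log2 scale, after 0.5 was added to each sum. Of 8272 genes with at least 20 UMIs over both libraries, 1373 (16.6%) were 2-fold or more higher in the JPI-289 cells and 1177 (14.2%) 2-fold or more lower, and the median log2 ratio of all genes was 0.11. The counts for gene lists are to be read against these shares. The libraries also differed in mitochondrial RNA, which had a median of 8.82% of UMIs per control cell and 2.76% per JPI-289 cell. The 5 deepest control cells held 24.7% of the control UMIs and the 5 deepest JPI-289 cells 9.57%. Genes past 2-fold on the higher side were led by Mt2, Mt1, Fosl1 and Krt20, and those on the lower side by Tmem174, Slc13a3 and Keg1 among genes with at least 200 UMIs.

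**Figure D3:**
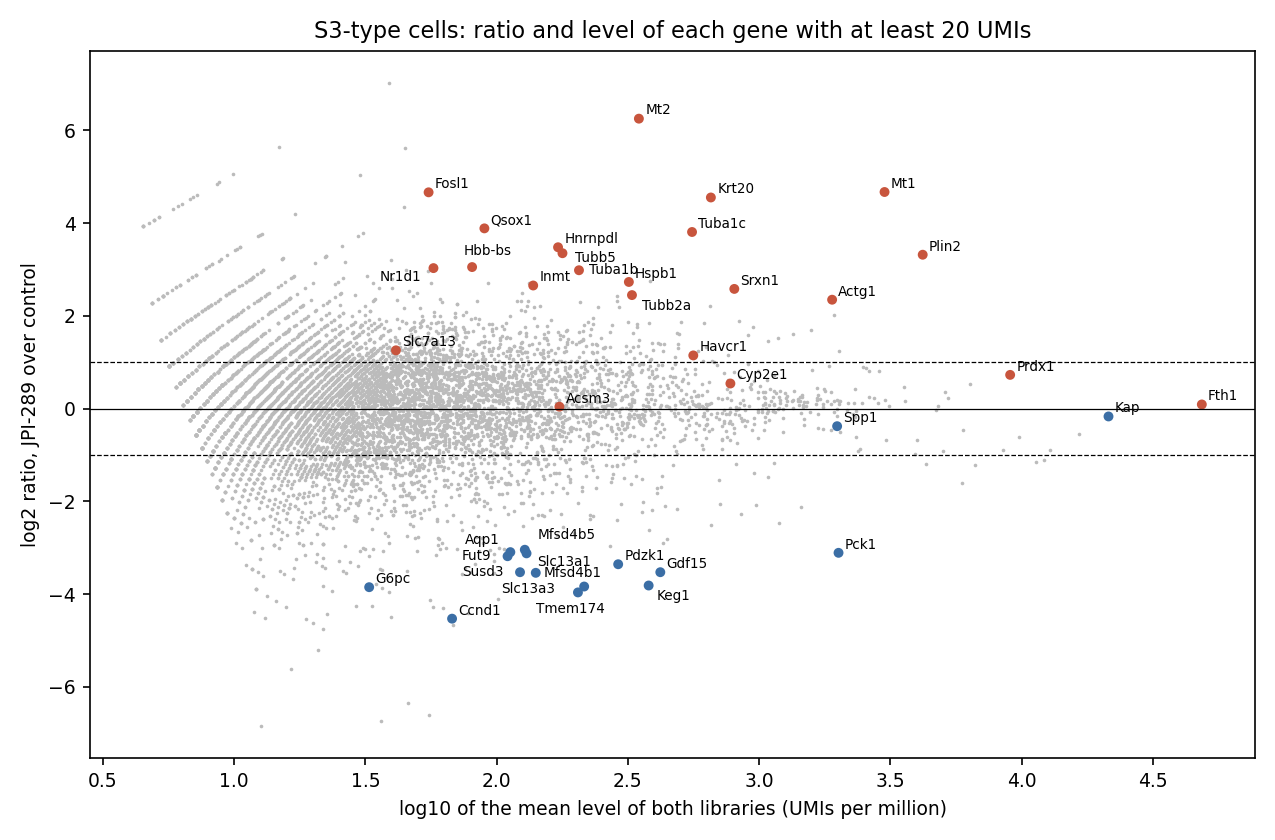
Each point is 1 gene with at least 20 UMIs in S3-type cells, with the log10 of its mean level in CPM on the x axis and its log2 ratio of JPI-289 over control on the y axis. Dashed lines mark 2-fold. Mt2, Mt1, Fosl1 and Krt20 lie above 4, Kap and Fth1 near 0 at the right edge, and Tmem174, Slc13a3, Keg1 and Ccnd1 below -3.5.

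Metallothioneins, small cysteine-rich proteins that bind zinc and copper and are induced by metals and oxidative stress, had the highest ratios among genes with at least 200 UMIs. Mt1 (ENSMUSG00000031765, chr8:94179082-94180327) had 188 UMIs in control and 12798 in JPI-289 cells, or 226 and 5778 CPM, a log2 ratio of 4.67 (95% interval 4.47 to 4.89). Mt2 (ENSMUSG00000031762, chr8:94172664-94173568) had 7 and 1524 UMIs, or 8.42 and 688 CPM, a log2 ratio of 6.25 (5.31 to 7.67). Cell by cell the pattern was broad. Mt1 was detected in all 163 JPI-289 cells, at a median of 4.39 UMIs per 1000 UMIs, and in 32 of 55 control cells, at a median of 0.0952 per 1000. Of the control Mt1 UMIs, 35.1% lay in 1 cell. Free RNA carried both genes too, since barcodes under 100 UMIs had Mt1 at 1898 CPM for the control and 5841 for JPI-289. With cells thinned to 1000 UMIs, Mt1 was found in 10.9% of control cells and 87.7% of JPI-289 S3-type cells and in 30.5% and 78.9% of neutrophil-type barcodes. The control share of S3-type cells was thus no higher than that of neutrophil-type barcodes. Whether neutrophils express Mt1 themselves or hold it as free RNA was not tested. With free RNA subtracted, the median log2 ratio of Mt1 and Mt2 was 6.40. It was 2.78 without the condition on Kap, which added 5 control barcodes and 1 JPI-289 barcode, with Mt1 at 2.70 and Mt2 at 2.85, so the size of the difference rests on a few control barcodes while its direction was the same. The coding sequences of Mt1 and Mt2 are alike, so reads near identical stretches may be assigned uncertainly between them. Mt3 was not detected.

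The 2 genes lie next to each other on chromosome 8 on the plus strand, and their upstream sequences are shown because both had high ratios. The windows are the 250 bases before the RefSeq start on GRCm38.p6, at chr8:94178839-94179088 for Mt1 and chr8:94172368-94172617 for Mt2. Capitals mark matches to TGCACNC or TGCGCNC on either strand, the core letters of the metal response element.
Mt1: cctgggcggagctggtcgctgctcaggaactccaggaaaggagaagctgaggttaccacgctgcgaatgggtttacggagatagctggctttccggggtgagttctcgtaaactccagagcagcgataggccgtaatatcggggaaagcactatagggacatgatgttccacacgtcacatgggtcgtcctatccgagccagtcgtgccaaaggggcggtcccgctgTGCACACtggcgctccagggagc
Mt2: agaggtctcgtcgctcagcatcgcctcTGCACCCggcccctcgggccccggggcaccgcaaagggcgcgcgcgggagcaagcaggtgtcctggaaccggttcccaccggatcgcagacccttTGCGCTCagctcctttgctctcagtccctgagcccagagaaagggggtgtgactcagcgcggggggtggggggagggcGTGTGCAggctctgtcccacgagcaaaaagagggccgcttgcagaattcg
The Mt1 window held 1 match and the Mt2 window 3. Of 32851 windows of the same length over all genes, 21.4% held at least 1 match and 1.26% held 3 or more. GENCODE gives an Mt1 start at 94179082, before the end of the Mt1 window, so the last bases of that window lie inside the gene. GENCODE gives further Mt1 starts at 94179211 and 94179241 and both Mt2 starts at 94172664 and 94172860, all downstream of these windows, and the bases in between were not searched, so the numbers of matches are not to be compared between the genes.

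Genes of injured and stressed tubule were mostly higher in the JPI-289 cells. Of 12 measured genes of the injury list, against 16.6% of all genes higher and 14.2% lower, 8 were 2-fold or more higher and 1 was 2-fold or more lower, with a median log2 ratio of 1.34. Krt20 (ENSMUSG00000035775, chr11:99428403-99438150), a keratin that appears in injured tubule, had 44 and 2783 UMIs (52.9 and 1256 CPM), a log2 ratio of 4.55 (4.14 to 5.03). After thinning it was found in 3.64% of control cells and 55.2% of JPI-289 S3-type cells, against 0% and 6.91% of neutrophil-type barcodes. Unthinned shares were 32.7% and 93.9%. Plin2 (ENSMUSG00000028494, chr4:86648386-86670060), which coats lipid droplets, had 635 and 16892 UMIs (764 and 7626 CPM), a log2 ratio of 3.32 (3.21 to 3.44). Its per-cell level ran from 0 to 6.72 UMIs per 1000 with a median of 0.514 in the control and from 0.675 to 19.3 with a median of 7.18 in the JPI-289 cells, so the libraries overlapped only in part. Plin2 in the thinned control cells (45.5%) was no more frequent than in neutrophil-type barcodes (49.7%), whereas in the JPI-289 library the shares were 98.2% and 65.6%.

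Havcr1 (ENSMUSG00000040405, chr11:46735080-46779578), kidney injury molecule 1, which marks damaged proximal tubule, was present in S3-type cells of both kidneys. It had 290 UMIs in control and 1713 in JPI-289 cells, or 349 and 773 CPM, a log2 ratio of 1.15 (0.97 to 1.33). At least 1 UMI was found in 44 of 55 control cells (80.0%) and 148 of 163 JPI-289 cells (90.8%), and after thinning in 23.6% and 47.9%, against 1.69% and 2.84% of neutrophil-type barcodes. Early cells had it after thinning in 5.14% and 19.6%. Detection in S3-type cells thus lay above early cells and above free RNA in both libraries. Further members of the list are given after their values were seen. Anxa2, a membrane-binding annexin, had 129 and 1175 UMIs (log2 ratio 1.77) and Krt8, a simple-epithelium keratin, 193 and 1345 (1.38). Sox9, a factor of tubule repair, was closer to level, with 80 and 272 UMIs (0.35). Spp1, osteopontin, had 1862 and 3813 UMIs, a log2 ratio of -0.38 (-0.46 to -0.30), and 26.2% of its JPI-289 UMIs were in 1 cell. Among the cells without a Havcr1 UMI (11 control and 15 JPI-289 cells) its ratio was 1.46. Spp1 in free RNA was at 13394 and 15316 CPM, above the 2240 and 1721 CPM of S3-type cells. Lcn2 had 27 and 181 UMIs (1.31), of which 44.2% in the JPI-289 library were in 1 cell, and after thinning it was in 7.27% and 6.13% of cells. Its ratio was -0.69 with the rule applied to thinned cells and -0.64 without barcodes that held markers of other cell types. Ccn1, a matricellular early gene, had 397 and 135 UMIs, a log2 ratio of -2.97 (-3.26 to -2.68).

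Of the 12 genes with the highest ratios and at least 200 UMIs, 3 encode tubulins, which were put together after their values were seen. Tuba1c had 61 and 2296 UMIs (73.4 and 1037 CPM), a log2 ratio of 3.81 (3.45 to 4.21), and was found in 63.6% of control cells and 98.2% of JPI-289 cells. Tubb5 had 26 and 720 UMIs (3.35) and Tuba1b 38 and 811 (2.98). These are the subunits of microtubules, and their sequences are similar enough that reads may be split uncertainly among family members. Fosl1, a subunit of the AP-1 factor, had 3 and 236 UMIs, a log2 ratio of 4.66 with a wide counting interval of 3.32 to 7.17. Qsox1, a secreted sulfhydryl oxidase, had 9 and 374 UMIs (3.89), Hnrnpdl, an RNA-binding protein, 23 and 698 (3.48), and Nr1d1, a repressor of the circadian clock, 10 and 228 (3.03). In thinned cells Fosl1 was found in 0 of 55 control and 7.36% of JPI-289 cells, and without thinning in 3.64% and 46.6%. The 0 in thinned cells thus does not limit how many control cells express it. Hbb-bs also ranked here (14 and 320 UMIs, 3.05), resting on the 1 cell described with the red blood cell markers.

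Antioxidant lists differed in direction. Of 15 measured targets of NRF2, the factor that answers oxidative stress, 12 had a ratio above 0. Of the 15, 4 were 2-fold or more higher and 1 was 2-fold or more lower, with a median of 0.73. Srxn1, sulfiredoxin, had 191 and 3053 UMIs, a log2 ratio of 2.58 (2.37 to 2.80). Hmox1, heme oxygenase 1, had 133 and 1105 (1.64, 1.38 to 1.91), and Prdx1, a peroxiredoxin, 5655 and 24942 (0.73). Among the cells without a Havcr1 UMI these were 0.11 and -0.50. Nqo1, a quinone reductase often used as the standard target, went the other way with 364 and 616 UMIs, a log2 ratio of -0.66 (-0.84 to -0.46), as did Osgin1 with 119 and 79 (-2.0). Slc7a11, the cystine importer, had 2 UMIs in 1 control cell and 47 in the JPI-289 cells (2.83, 1.21 to 6.23), and its ratio was -0.31 with the rule applied to thinned cells. Glutathione S-transferases, which conjugate glutathione to toxic compounds, were not higher as a list, since 0 of 12 were 2-fold higher and 4 were 2-fold lower (median -0.41). Gsta4 had 150 and 34 UMIs (-3.54) and Gstm1 1304 and 820 (-2.08), while Gsta1 had 788 and 2508 (0.26). Members of the Gsta and Gstm families share much sequence, which makes their separate counts uncertain.

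Iron genes spanned both directions. Fth1, ferritin heavy chain, took 47010 CPM in control and 49990 in JPI-289 cells, a log2 ratio of 0.09 (0.07 to 0.11). Ftl1, the light chain, had 5201 and 7557 CPM (0.54). Gpx4, which reduces lipid peroxides and guards against ferroptosis, had 1986 and 3723 UMIs, a log2 ratio of -0.51 (-0.59 to -0.43), and Cat, catalase, 554 and 1042 (-0.50, -0.65 to -0.35). The median of the 13 measured iron and ferroptosis genes was -0.42.

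Proteasome subunits were uniform in direction. Of 35 listed, 34 were measured, all 34 had a ratio above 0 and 21 were 2-fold or more higher, with a median of 1.14. The proteasome degrades ubiquitin-tagged proteins, with a barrel of Psma and Psmb subunits and caps of Psmc and Psmd subunits. Psmd11 had 85 and 809 UMIs (1.83, 1.51 to 2.18), Psmd14, which removes ubiquitin at the cap, 53 and 490 (1.78), and Psmb5, the chymotrypsin-like site, 430 and 1714 (0.58). In early cells all 34 were above 0 as well, with a median of 0.82 and 9 past 2-fold, where 7.64% of all genes were 2-fold higher. Heat shock genes had a median of 0.69, with 4 of 10 past 2-fold on the higher side. Hspb1, a small chaperone, had 69 and 1229 UMIs (2.73, 2.39 to 3.11), Hsp90ab1 1058 and 5351 (0.92), and Hspa8, the constitutive chaperone, 1377 and 2892 (-0.34).

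Transporters were mostly on the lower side. Of 21 measured solute and drug transporters, 13 were 2-fold or more lower and 1 was 2-fold or more higher, with a median of -1.59. Summed over the list, the level was 4667 CPM in control and 1480 in JPI-289 cells. Slc22a6, the organic anion transporter OAT1, had 948 and 603 UMIs (-2.07, -2.22 to -1.92). Abcc2, an apical export pump, had 628 and 225 (-2.89) and Slc13a1, the sulfate transporter, 194 and 59 (-3.12, -3.58 to -2.70). Abcg2, another export pump, was less far apart with 440 and 590 UMIs (-0.99). Slc22a8, the anion transporter OAT3, had 92 and 279 UMIs, a log2 ratio of 0.18 (-0.16 to 0.54) whose interval spans 0, so transporters were not uniformly lower.

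The 12 genes with the lowest ratios among those with at least 200 UMIs had varied roles. Tmem174, a membrane protein of the proximal tubule, had 319 and 54 UMIs (384 and 24.4 CPM), a log2 ratio of -3.97 (-4.42 to -3.56). Slc13a3, which takes up dicarboxylates, had 335 and 62 UMIs (-3.84), and Pdzk1, a scaffold that holds apical transporters, 440 and 114 (-3.36). Keg1, an acyltransferase relative of the kidney, had 589 and 111 UMIs (-3.82, -4.13 to -3.53) and was at 0 in 3 of 55 control and 95 of 163 JPI-289 cells. Aqp1, the water channel, had 168 and 52 (-3.10), Fut9, a fucosyltransferase, 165 and 48 (-3.18), and Susd3 188 and 43 (-3.53). Mfsd4b1 (216 and 49) and Mfsd4b5 (190 and 61) are related transporter genes whose reads may be shared. Gdf15, a stress cytokine, had 643 and 148 UMIs (-3.53), and 38.1% of its control UMIs were in 1 cell. Of the endocytosis receptors that recover filtered protein, Lrp2 (megalin) had 323 and 173 UMIs (-2.31) and Cubn (cubilin) 91 and 32 (-2.91), and their adaptor Dab2 242 and 1083 (0.75).

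Genes of glucose production were lower in part. Pck1 (ENSMUSG00000027513, chr2:173153048-173159273), which makes phosphoenolpyruvate at the entry to gluconeogenesis, had 2988 and 921 UMIs (3595 and 416 CPM), a log2 ratio of -3.11 (-3.22 to -3.0). Its median was 3.44 UMIs per 1000 in control cells and 0.190 in JPI-289 cells, and 1 of 55 and 41 of 163 cells had none. G6pc, the last step of the pathway, had 51 and 9 UMIs (-3.85) and its partner Slc37a4, the glucose-6-phosphate carrier, 116 and 52 (-2.56). Fbp1, fructose-bisphosphatase of the same pathway, differed less, with 463 and 1297 UMIs (0.07, -0.08 to 0.23). The median of the 6 genes was -1.75. Glycolysis genes had a median of 0.09, with 1 of 12 past 2-fold, and Gapdh had 4009 and 12521 UMIs (0.23).

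Fat oxidation genes were mostly below the median of all genes. Of 24 measured peroxisomal and mitochondrial fatty acid oxidation genes, 6 were 2-fold or more lower and 1 was 2-fold or more higher, 5 had a ratio above 0, and the median was -0.31. Cyp4a10 and Cyp4a14, fatty acid hydroxylases driven by PPARα, had 491 and 277 UMIs (-2.24) and 106 and 46 (-2.61). Acaa1b, a peroxisomal thiolase, had 1334 and 3030 (-0.23) and Ehhadh, the bifunctional enzyme, 663 and 2355 (0.41). Pdk4, which holds pyruvate back from oxidation, was on the higher side with 297 and 2915 UMIs (1.88, 1.71 to 2.06).

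Transcripts of all 13 protein-coding genes of the mitochondrial genome had lower levels in the JPI-289 cells, with a median of -1.10 and 7 past 2-fold. For mt-Co1 the levels were 15598 and 6966 CPM (-1.16, -1.20 to -1.13), and for mt-Nd1 8891 and 2914 (-1.61). The mitochondrial share is also a limit of the rule and a sign of cell damage, and when only cells with a share from 2 to 10% were used in both libraries (25 control and 61 JPI-289 cells) the median was -0.19. These transcripts make up that share, so choosing cells by it draws the median toward 0 by construction, and nothing is concluded from it. In early cells the median was 0.06. The nuclear genes of the respiratory chain had a median of -0.11, with 0 of 77 past 2-fold on the higher and 1 on the lower side, so the lower level of the mitochondrial transcripts had no counterpart of that size among them. For cytosolic ribosomal proteins the median was 0.11, and none of 79 was past 2-fold in either direction.

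The S3 program itself was mixed. Of 9 measured S3 genes beside the rule, 1 was 2-fold or more higher and 4 were 2-fold or more lower, with a median of -0.27. Over the same 9 genes it was 0.11 with the rule applied to cells thinned to 1000 UMIs (15 control and 33 JPI-289 cells). It was -1.60 among the cells without a Havcr1 UMI, where 3 of the 9 genes reached 20 UMIs. Acsm3 was level (0.04, -0.24 to 0.33), and Ggt1, the brush border enzyme that splits glutathione, had 374 and 827 UMIs (-0.27). Slc6a18, a neutral amino acid transporter, had 314 and 170 (-2.30, -2.58 to -2.03), and Slc3a1, the heavy chain of the cystine transporter, 192 and 224 (-1.19, but 0.11 with the rule on thinned cells and -3.10 among the cells without a Havcr1 UMI). Aadat, an aminotransferase of the kynurenine pathway, had 36 and 130 (0.42). Of 10 measured early-segment genes, 7 were 2-fold or more lower, among them Slc4a4, the basolateral bicarbonate transporter, with 590 and 365 UMIs (-2.11), whereas Slc34a1 was at 0.54 (0.41 to 0.67) and at -0.61 among the cells without a Havcr1 UMI. Genes that respond to androgen had a median of 0.04. Odc1, ornithine decarboxylase, had 270 and 1405 UMIs (0.96), Cyp4b1 936 and 2837 (0.19), and Adh1 520 and 503 (-1.46).

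Transcription factors of proximal tubule identity were lower for the most part, with 5 of 9 past 2-fold and a median of -1.36. Hnf4a, a main regulator of the differentiated tubule, had 173 and 133 UMIs (-1.79, -2.13 to -1.46), Maf 91 and 45 (-2.42), and Nr1h4, the bile acid receptor, 133 and 138 (-1.36). Pax8, a factor of kidney development and repair, was on the higher side with 56 and 399 (1.41, 1.01 to 1.85). Immediate early genes had a median of -1.0, and the same 11 genes had one of 0.44 among the cells without a Havcr1 UMI. Jun had 543 and 236 UMIs (-2.61) and Fosb 130 and 46 (-2.90), with 21.5% and 19.2% of their control UMIs in 1 cell, and Jun was at -0.57 among the cells without a Havcr1 UMI. Ier3, a stress-induced survival gene, had 24 and 202 (1.63), and 0.076 with the rule applied to thinned cells.

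Damage and growth genes did not share a direction. Among 9 measured p53 targets, Cdkn1a, the cell cycle inhibitor p21, had 74 and 1073 UMIs (2.44, 2.10 to 2.80) and Mdm2 40 and 195 (0.86), whereas Ccng1 had 239 and 439 (-0.54), and the list median was -0.38. That median was 0.59 over the 7 targets with at least 100 UMIs. It was 0.40 over 8 targets in cells with 10 or more UMIs of Slc7a13, Cyp2e1 and Inmt, so its sign was not stable. Ccnd1, cyclin D1, which drives entry into the cell cycle, had 108 and 12 UMIs (-4.53, -5.58 to -3.72), and 6 of the 12 JPI-289 UMIs were in 1 cell. Pcna, the DNA clamp, had 19 and 105 (1.02). In the integrated stress and unfolded protein response, Atf4 had 34 and 325 (1.82) and Eif4ebp1 145 and 989 (1.35), while Herpud1, which clears misfolded proteins of the endoplasmic reticulum, had 159 and 92 (-2.20), and the median was -0.05.

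The target of the compound was sparsely detected. Parp1 (ENSMUSG00000026496, chr1:180568924-180601254), which encodes the main PARP enzyme, had 11 and 35 UMIs (0.21, -0.75 to 1.38), so a difference was not detectable at this depth. Of 15 listed genes of the PARP family, the glycohydrolase Parg included, 7 were measured, with a median of -0.27 and 1 past 2-fold. Of 9 measured genes of NAD synthesis and related steps, all had ratios below 0 and 4 were 2-fold or more lower (median -0.85). The 14 genes of that list include Acmsd and Nnmt, which do not make NAD, so the median does not stand for synthesis alone. Nampt, which recycles nicotinamide, had 71 and 87 UMIs (-1.12, -1.59 to -0.65), Haao, an enzyme of synthesis from tryptophan, 72 and 166 (-0.21) and Qprt, the next step of that route, 46 and 94 (-0.39).

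Secreted and matrix genes were mostly lower or few in UMIs. Of 10 measured chemokine, cytokine and innate genes, 6 were 2-fold or more lower and 2 were 2-fold or more higher, with a median of -1.23. That median was -0.17 over the 6 genes with at least 100 UMIs, and -0.61 without barcodes that held markers of other cell types. Cxcl1, which attracts neutrophils, had 112 and 110 UMIs (-1.44), with 34.8% of the control UMIs in 1 cell. Il34, a growth factor for macrophages that injured tubule makes, had 47 and 332 (1.39, 0.96 to 1.88). Cd14 had 8 and 179 (2.99), but neutrophils express it strongly, and after thinning it was in 96.6% and 93.8% of neutrophil-type barcodes against 0% and 4.91% of S3-type cells. Neutrophil markers in these cells were 71.0 and 45.1 CPM, and their part in the Cd14 value was not tested. Of 10 measured matrix genes, 5 were 2-fold or more lower and 2 were 2-fold or more higher, with a median of -0.98. Col4a3 and Col4a4, basement membrane collagens, had 88 and 13 (-4.13) and 88 and 26 UMIs (-3.15). The 2 on the higher side were Ccn2 (2 and 24 UMIs, 1.88) and Tgfb1 (4 and 28, 1.25), named after their values were seen. Fibrinogen chains, plasma proteins that injured tubule can make, were all higher with a median of 0.99, namely Fga with 193 and 1229 UMIs (1.25), Fgb with 88 and 469 (0.99) and Fgg with 221 and 1113 (0.92). Among the cells without a Havcr1 UMI the direction was the opposite, with Fga at -0.38, Fgb at -1.11 and Fgg at -1.17.

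**Figure D4:**
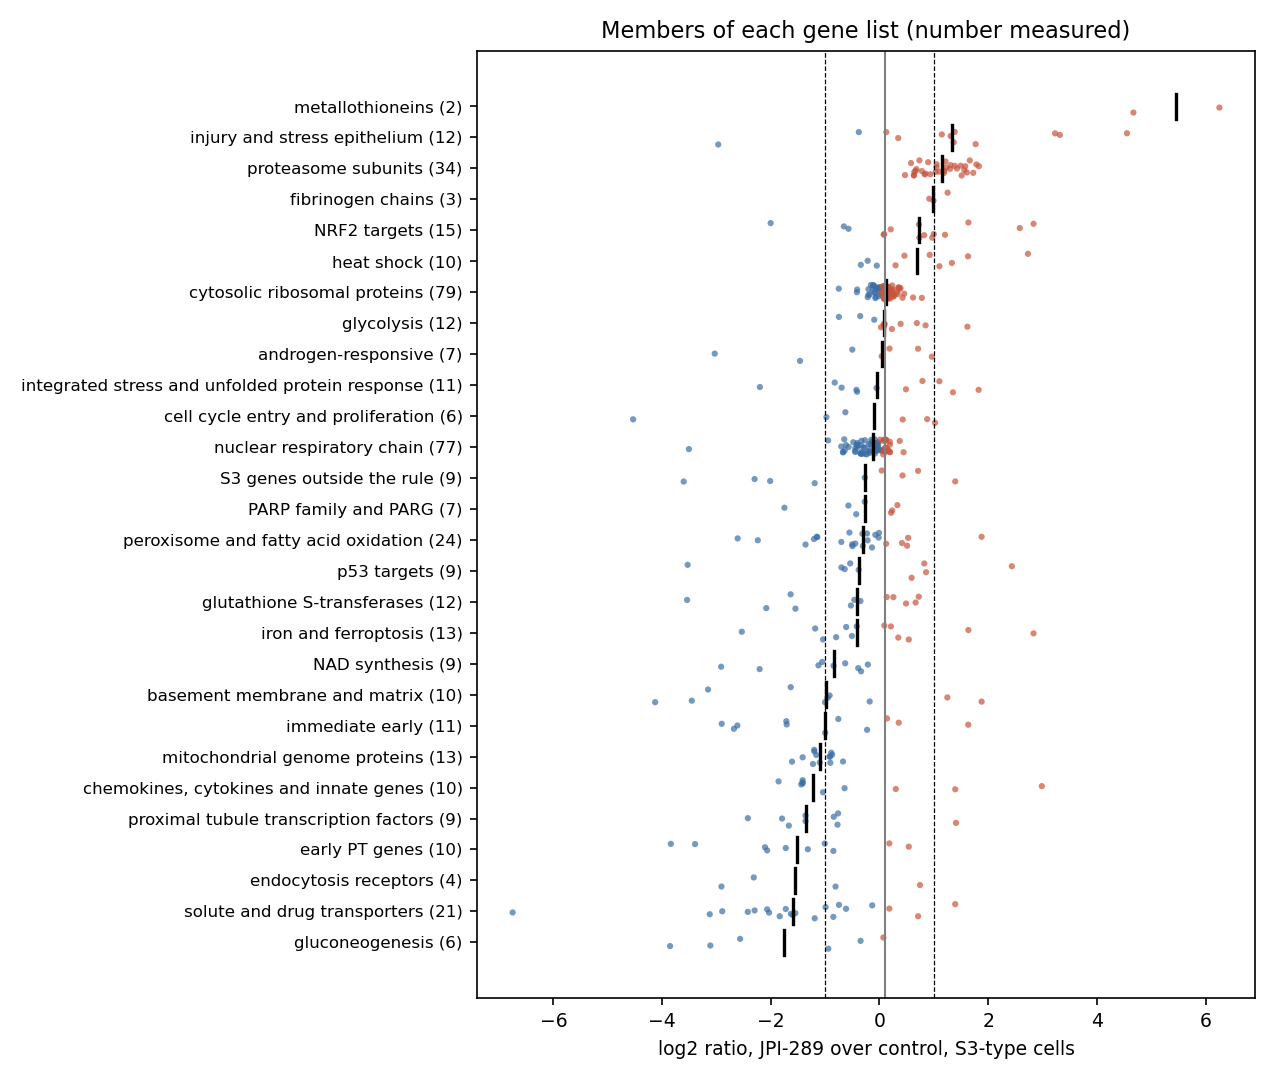
Each row is a gene list with the number of members measured, each point a member's log2 ratio of JPI-289 over control in S3-type cells, and each black bar the list median. The grey line is the median of all genes (0.11) and dashed lines mark 2-fold. Metallothioneins (5.46), injury genes (1.34) and proteasome subunits (1.14) lie at the top, and gluconeogenesis (-1.75) and solute transporters (-1.59) at the bottom.

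Early proximal tubule cells of the same libraries are given side by side to show where S3-type cells stood apart. In early cells 7.64% of 9912 genes were 2-fold or more higher and 24.0% lower, with a median of -0.22. No test of a difference between the cell types was possible with 1 library per group. Mt1 and Plin2 had ratios of 4.40 and 3.49 in early cells, near those of S3-type cells, and Krt20 had 3.56 against 4.55. Among genes with at least 200 UMIs in each, those named next had wide gaps between the cell types and were chosen after their values were seen, not by rank. Haao had -0.21 in S3-type and -4.23 in early cells, where its UMIs were 252 and 10. Slc34a1 had 0.54 (-0.61 among the cells without a Havcr1 UMI) and -1.75, with 7117 and 1660 UMIs in early cells. Miox, myo-inositol oxygenase of the proximal tubule, had 479 and 3491 UMIs in S3-type cells (1.45) and 1723 and 752 in early cells (-0.84). Tubb2a, a further tubulin, had 84 and 1228 UMIs in S3-type (2.45) and 371 and 215 in early cells (-0.43). Khk, which phosphorylates fructose, and Fbp1 had gaps in the same direction, with Khk at -0.19 and -2.64 and Fbp1 at 0.07 and -2.05. Haao, Khk and Fbp1 thus had ratios near 0 in S3-type cells and were 4-fold or more lower in early cells. They do not stand for metabolic genes as a whole, since gluconeogenesis genes had medians of -1.75 and -2.17. With at least 200 UMIs in both cell types, 180 genes were 2-fold or more lower in S3-type cells, 138 of them in early cells too. On the higher side the overlap was smaller, with 157 of 360 genes. Of all 2141 such genes, 1700 had the same sign in both cell types. The shares of these genes past 2-fold in early cells were not counted, so no excess is read from the overlap.

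The injury list as a whole had a median of 1.34 in S3-type cells and 0.98 in early cells. In barcodes with 2 or more Havcr1 UMIs outside both groups it was 0.16. Its summed level for control and JPI-289 was 4446 and 12870 CPM in S3-type cells and 12986 and 29849 in early cells. Some genes, chosen after their values were seen, had lower ratios in S3-type than in early cells. Fgb had 0.99 in S3-type and 3.28 in early cells, and Lgals3, galectin 3, 0.85 and 3.73, with 338 and 1626 UMIs in S3-type cells. Havcr1 had 1.15 and 2.29. For Havcr1 the control level was 349 CPM in S3-type and 52.7 in early cells, and the JPI-289 level 773 and 259, so the smaller ratio went with a higher level in the S3-type control cells. Gstm1 had -2.08 and -0.20, and Gsta4 -3.54 and 0.22. S100a6 had 402 and 203 UMIs in S3-type cells (-2.40, -2.65 to -2.15) and 362 and 577 in early cells (1.03, 0.83 to 1.22). Of 2141 genes with at least 200 UMIs in both cell types, it alone was past 2-fold in opposite directions. Barcodes with 2 or more Havcr1 UMIs that were in neither group (93 control and 201 JPI-289) had Mt1 at 3.01, Krt20 at 2.77, Plin2 at 3.27, Pck1 at -3.01 and S100a6 at -2.45. The S100a6 ratio of S3-type cells was thus near that of these barcodes, and 30.3% and 27.1% of its S3-type UMIs lay in 1 cell of each library.

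**Figure D5:**
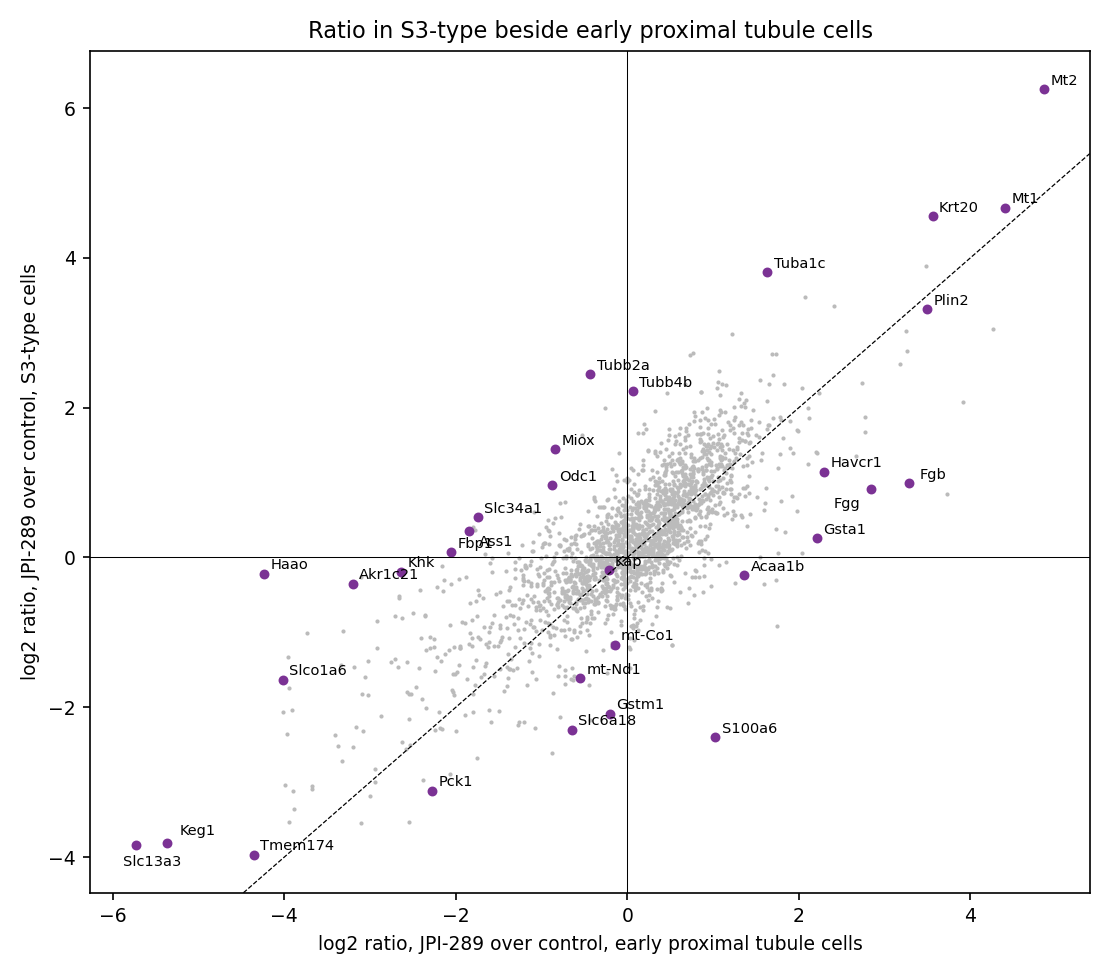
Each point is a gene with at least 200 UMIs in both cell types, with its log2 ratio of JPI-289 over control in early proximal tubule cells on the x axis and in S3-type cells on the y axis; the dashed line marks equal ratios. Both ratios use the same 2 libraries. Mt1 and Plin2 lie near the line, Krt20, Haao, Tubb2a and Miox above it, and S100a6, Gstm1 and Fgb below it.

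S3-type cells also varied within each library. Ordered by mitochondrial share, the 19 control cells with the lowest share had Kap at 10345 CPM, the next 18 at 26564 and the 18 with the highest share at 27118. In the JPI-289 library the 55 lowest, 54 middle and 54 highest cells had 10128, 18824 and 30837. Cells with little mitochondrial RNA thus had less Kap in both libraries, although both measures enter the rule. Solute transporters followed the same order, with 3437, 4861 and 5372 CPM in the control and 801, 1559 and 2045 in the JPI-289 cells, so that every set of JPI-289 cells was below every set of control cells. Plin2 had the reverse order, with 1222, 764 and 404 CPM in the control and 9335, 7898 and 5754 in the JPI-289 cells. Mt1 had 430, 175 and 135 CPM across the control sets and 5892, 5691 and 5754 across the JPI-289 sets. Glycolysis genes ran from 13295 to 6569 CPM from the lowest to the highest mitochondrial share in the JPI-289 library, and from 11734 to 6218 in the control.

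Cells without a Havcr1 UMI were few, 11 for the control and 15 for JPI-289. The 15 JPI-289 cells had Kap at 7028 CPM against 21021 in the 148 with a Havcr1 UMI, and Mt1 at 6907 against 5702, so Mt1 was not limited to cells with Havcr1. By depth, the 24 JPI-289 cells under 5000 UMIs had Mt1 at 5329 and Plin2 at 7898 CPM, and the 54 cells with 15000 or more had 5470 and 7555. The 8 control cells under 5000 UMIs had Mt1 at 167 and Plin2 at 1045, and the 20 deepest 278 and 634. The differences of both genes between the libraries were thus seen at each depth.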

How the data were processed

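Kidney cells of both mice were captured with a 10x Chromium 5′ kit, and the authors deposited UMI counts per gene and barcode, made with Cell Ranger 5.0.1 on mm10 per the labels and not filtered to cells (38328760 UMIs for the control mouse and 35548396 for the treated mouse). Counts were read and summed with Python 3.11.15, numpy 2.4.6, scipy 1.17.1, pandas 2.3.3 and matplotlib 3.10.9. Cells of 1 library are not replicates, so sums per library were compared as log2 ratios with exact binomial 95% intervals, levels and shares with exact Poisson and Clopper-Pearson intervals, and no test was run. Genes needed 20 UMIs over both libraries. Shares were also taken after thinning each cell to 1000 UMIs. Doublets were not removed and no caller was run; an alternative left out barcodes with markers of other cells. Free RNA was read from barcodes under 100 UMIs. Named genes were the 12 highest and 12 lowest ratios among genes with 200 UMIs or more, the most abundant and most different members of each list (100 UMIs or more) and a set of genes given whatever their values; others were chosen after their values were seen, and some that the rule names are not reported here. Members and lists were chosen with earlier results of these data known. Gene coordinates are from GENCODE vM21 on GRCm38 and promoter sequences from RefSeq. The ratio and its interval were checked on simulated Poisson counts of the summed profile. That simulation had no spread between cells, so it checks the calculation only. Alternatives on Kap per 1000 UMIs, a mitochondrial share of 2 to 10% and red blood cell markers were added after seeing the data.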

Additional observations from a re-analysis of the deposited data

Results flagged for a closer look

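S100a6, a calcium-binding protein, was singled out because it lay past 2-fold in opposite directions in S3-type and early proximal tubule cells of the same 2 libraries. With JPI-289 over control, its log2 ratio stood at -2.40 (-2.65 to -2.15) in S3-type cells, at 484 and 91.6 CPM, and 1.03 (0.83 to 1.22) in early cells, at 118 and 240. Havcr1-positive barcodes outside both groups had -2.45, with 1644 and 379 UMIs. Of the S3-type UMIs, 30.3% in the control and 27.1% with JPI-289 lay in 1 cell. The difference between the cell types was not tested, since each group had 1 library.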

How the results depend on the processing

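No paired analysis was possible because each group had 1 library. Depth limits the control most, with 55 cells. The number of control and JPI-289 cells was 19 and 101 with 10 or more UMIs of the 3 genes, 15 and 33 with the rule on thinned counts, 33 in the control without barcodes with markers of other cells, 11 and 15 without barcodes with a Havcr1 UMI, and 25 and 61 at a mitochondrial share of 2 to 10%. Genes 2-fold higher were 576 on thinned counts, 369 without Havcr1, 887 at a share of 2 to 10% and 654 with 100 UMIs or more. Genes lower were 301, 215 and 383 on thinned counts, without Havcr1 and with 100 UMIs or more, and 1987 with 5 or more. The reported counts were 1373 and 1177 of 8272 genes. The number of genes that reached the minimum changed with the setting and was not kept, so these counts are not shares and cannot be compared directly. List medians covered only members that still had 20 UMIs. Without barcodes with a Havcr1 UMI, they were -2.18 for transporters (6 of 21 genes), -0.77 for fibrinogen (2 of 3), 1.54 for the stress and unfolded protein response (4 of 11), 0.85 for immediate early genes (6 of 11), 1.10 for p53 targets (4 of 9), -0.28 for nuclear respiratory genes, and the median log2 ratio of cytosolic ribosomal proteins was -0.18. At a share of 2 to 10% they were -0.18 for glycolysis, 0.78 for fibrinogen, 0.78 for the proteasome and -0.19 for the mitochondrial genome. With the rule on thinned counts they were 0.13 for fibrinogen, 4.28 for metallothioneins, 1.47 for the cell cycle (1 of 6 genes) and -0.26 for nuclear respiratory genes. Fibrinogen was 0.89 and ribosomal proteins 0.25 with 10 or more UMIs of the 3 genes, fibrinogen 1.39 without other markers, 0.91 (ribosomal 0.031) on nuclear UMIs, 0.89 when centred (nuclear respiratory -0.22, ribosomal 0.00735) and 0.88 with free RNA subtracted. Metallothioneins were 6.40 with free RNA subtracted and 2.78 without the Kap condition, and ribosomal proteins 0.075 at 20% mitochondrial UMIs or less. Over all alternatives, 33 of 557 list medians and 90 of 3183 single-gene values had the opposite sign of the reported value, 9 and 24 of them without barcodes with a Havcr1 UMI (chemokines 0.68 from 1 of 10 genes, Fgb -1.11, Fgg -1.17, Spp1 1.46, Klf6 2.09, Slc34a1 -0.61, Prdx1 -0.50). Of 87 named genes past 2-fold, 32 were not past it under at least 1 alternative. Among them the sign was opposite with the rule on thinned counts (Hbb-bs -1.27, Slc7a11 -0.31, Dnajb1 -0.62, Lcn2 -0.69, Ncoa4 0.75, Slc3a1 0.11), without Havcr1 (Hbb-bs -0.13, Fga -0.38, Btg2 0.77) and without other markers (Lcn2 -0.64). The cause was not tested. Over all alternatives Mt1 ranged from 2.70 to 5.74, Krt20 from 3.80 to 5.52, Plin2 from 2.83 to 3.76, Havcr1 from 0.89 to 1.71 and Pck1 from -3.50 to -2.88.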
